A study of Mus musculus with 86 samples.

Results

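Large peritoneal macrophages (LPM), the long-lived resident macrophages of the peritoneal cavity, were taken from C57BL6/J mice and cultured with IL-34 or with M-CSF. The comparison of these ligands rests on 8 RNA libraries of the 86 samples in the series. The libraries were depleted of ribosomal RNA. In 4 of them LPM were kept with IL-34 at 4 ng/ml for 7 days, and in the other 4 with M-CSF at 4 ng/ml for 7 days. Each ligand was combined, also for 7 days, with 1 of 4 additives: all-trans retinoic acid (ATRA) at 2 um as the label writes it, its vehicle DMSO under that same label, TGFB1 at 1 ng/ml, or the vehicle of TGFB1 (VehTGFB1) at a matching 1 ng/ml. All 8 cultures received a ligand, and a culture of LPM without one was not analysed here. There was 1 library per ligand and additive, so the ligands were compared within 4 pairs matched by additive, and nothing in the labels says whether the cells were pooled or came from separate animals. The sex, age and number of the animals are not given. Xist, the X-inactivation RNA, stood between 0 and 1.70 and the Y gene Ddx3y between 595 and 1089 in the 8 libraries, so no pair was split by these sex-linked genes.

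IL-34 and M-CSF (the product of Csf1) are cytokines of unrelated sequence that bind the same receptor tyrosine kinase, CSF1R, which macrophages need for survival and proliferation. IL-34 is known for maintaining microglia and Langerhans cells, and M-CSF for maintaining macrophages of most other tissues, among them those of the peritoneum. Signalling through CSF1R is known to induce immediate early genes such as Egr1 and Fos and then D-type cyclins, which carry cells from G1 into DNA replication. IL-34 also binds syndecan-1 (the product of Sdc1) and the receptor phosphatase PTPRZ1.

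The differences were of 2 kinds, which overlap. A set of 40 genes differed in 1 direction by 1.5-fold or more on the log2(value + 1) scale in all 4 pairs, with the lipid exporter Abcg1, the apolipoprotein gene Apoc4 and the metabolic kinase Pdk4 higher with IL-34 and Egr1, Mmp9, Ms4a6b and Ch25h lower. Of these, Mmp9 with TGFB1 and Ch25h with ATRA rest on no more than 3 reads in either library of the pair. Genes of DNA replication and mitosis differed in the DMSO and VehTGFB1 pairs, where all 58 listed members were lower with IL-34. With ATRA or TGFB1 the medians of both lists lay between -0.42 and -0.03 on the log2 scale relative to all genes. The cell cycle gene Cenpf is also among the 40 genes. The differences of Pdk4, Ch25h and some LPM markers varied in size between the vehicle pairs and the other pairs as well, a division chosen after the values were seen.

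Promoters of the cell cycle genes are shown first, since these genes move together in the data. The windows are those of RefSeq on GRCm38.p6 and run from 250 bases before to 50 bases after the listed transcript start, 5′ to 3′ on the strand of the gene. Capitals mark matches, on either strand, to the letters TTTGAA (the core of the cell cycle homology region, CHR, through which mitotic genes are known to be repressed and activated) and CCAAT (the CCAAT box). Top2a encodes the topoisomerase that separates sister chromatids, Cenpf a kinetochore protein, Cdk1 the kinase that drives mitosis, and Mcm5 a subunit of the replicative helicase.
Top2a, chr11:99024140-99024439, minus strand: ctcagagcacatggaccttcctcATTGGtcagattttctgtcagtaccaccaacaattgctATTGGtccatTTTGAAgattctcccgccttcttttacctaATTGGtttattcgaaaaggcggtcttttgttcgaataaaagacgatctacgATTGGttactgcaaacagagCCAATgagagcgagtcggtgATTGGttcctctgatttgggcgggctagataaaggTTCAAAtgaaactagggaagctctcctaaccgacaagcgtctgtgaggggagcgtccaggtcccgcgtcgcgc
Cenpf, chr1:189688037-189688336, minus strand: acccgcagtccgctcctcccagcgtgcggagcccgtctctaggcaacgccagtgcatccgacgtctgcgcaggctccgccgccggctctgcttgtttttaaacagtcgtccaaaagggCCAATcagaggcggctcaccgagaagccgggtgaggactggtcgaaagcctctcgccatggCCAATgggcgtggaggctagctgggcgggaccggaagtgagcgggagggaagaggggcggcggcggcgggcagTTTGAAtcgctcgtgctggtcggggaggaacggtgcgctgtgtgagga
Cdk1, chr10:69352863-69353162, minus strand: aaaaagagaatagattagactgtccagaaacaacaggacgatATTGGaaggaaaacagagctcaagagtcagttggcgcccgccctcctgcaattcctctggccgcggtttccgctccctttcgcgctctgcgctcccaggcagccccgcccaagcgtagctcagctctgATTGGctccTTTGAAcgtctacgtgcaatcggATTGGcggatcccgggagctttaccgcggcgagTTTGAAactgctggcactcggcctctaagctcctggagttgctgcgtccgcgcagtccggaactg
Mcm5, chr8:75109259-75109558, plus strand: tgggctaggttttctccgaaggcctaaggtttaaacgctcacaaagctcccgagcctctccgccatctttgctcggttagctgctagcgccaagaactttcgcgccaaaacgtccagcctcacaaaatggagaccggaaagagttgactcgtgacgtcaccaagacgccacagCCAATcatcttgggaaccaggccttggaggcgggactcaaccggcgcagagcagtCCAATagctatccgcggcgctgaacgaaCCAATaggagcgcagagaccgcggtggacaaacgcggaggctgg

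Of the 28 genes of the mitosis list, 23 had a RefSeq window whose start lay within 100 bases of the start in the deposited table. TTTGAA was found in 17 of these 23 windows (73.9%), beside 15.6% of the 15730 windows of all genes matched in this way. CCAAT was found in 19 of 23 (82.6%), beside 38.7% of all windows. Of the 30 genes of the DNA replication list, 24 had a window, of which 2 held TTTGAA (8.33%), 15 held CCAAT (62.5%) and 12 held the E2F letters TTCCCGC (50%), beside 6.17% of all windows for TTCCCGC. In the mitosis list 1 of 23 windows held TTCCCGC. A match describes the sequence and says nothing of binding. Of the 24 genes lower with IL-34 in all 4 pairs, 18 had a window and 4 of them held TTTGAA (22.2%), and of the 16 higher genes 10 had a window and 2 held it (20.0%).

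Values are the authors' reads per gene scaled to 10000000 mapped reads per library. Mapped reads ranged from 7660000 to 14230000, and 36.0% to 47.0% of them fell in the genes used. The macrophage surface gene Emr1 (F4/80) stood between 7566 and 12795, Itgam (CD11b) between 3516 and 12278, and Gata6, the transcription factor that defines LPM, between 50.9 and 184. Summed markers of T and NK cells were at most 3.92 in any library, those of erythroid cells at most 11.7, those of mast cells and eosinophils at most 45.8, those of mesothelium and fibroblasts at most 45.7 and those of B cells between 46.3 and 109. The B cell gene Pax5 and the mesothelial genes Msln, Upk3b and Krt19 were at 0 in all 8 libraries. The library of IL-34 with DMSO stood apart. It was the shallowest, its small nucleolar RNA genes summed to 329212 against 125057 to 176031 in the other 7, and its ribosomal precursor Rn45s stood at 195124 against 65538 to 140496. The median IL-34 minus M-CSF difference over the 7974 genes with a mean of at least 50 was -0.61 on the log2 scale in the DMSO pair, 0.12 in the ATRA pair, 0.08 in the TGFB1 pair and -0.23 in the VehTGFB1 pair. Adjusted p-values written as centred come from the same fit after centring each library on its median. The part of this shift in the results was not tested beyond that.

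Limma on log2(value + 1), with the additive as a block, called 41 genes higher with IL-34 (0.266% of 15417 tested) and 143 lower (0.928%) at a Benjamini-Hochberg adjusted p under 0.05. With a log2 difference of at least 1 as well, 28 (0.182%) and 126 (0.817%) were called. These p-values, and the SEs of the ligand difference, rest on a variance that limma shared in full across genes along their mean level. They therefore do not measure a gene's own spread over the 4 pairs. With each gene's own variance, on 3 residual degrees of freedom, limma called 0 genes, with 528 at an unadjusted p under 0.05. It also called 0 with any library left out (525 to 1029 at an unadjusted p under 0.05). Quantile normalization, which removes the shift between libraries, called 26 higher and 10 lower, and edgeR on the recovered reads 126 higher and 85 lower. An exact sign permutation over 4 pairs cannot go below p = 0.125, so that test cannot reach 0.05 for a single gene. Called both in the main fit and under quantile normalization, TMM scaling, edgeR and DESeq2 were 15 genes higher and 10 lower. In such bulk cultures, fewer cells of a kind and less RNA per cell cannot be told apart.

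Ccnd1 (chr7:144929931-144939925) encodes cyclin D1, the G1 cyclin induced by growth factors. With IL-34 its level was 120 with DMSO, 320.5 with ATRA, 250.2 with TGFB1 and 187 with VehTGFB1. With M-CSF it was 1441, 385, 747 and 1261 in the same order. All 4 M-CSF libraries were above all 4 IL-34 libraries, and both ligands' libraries lay nearest to each other with ATRA. The ratio of M-CSF to IL-34 was 12.0 with DMSO, 6.76 with VehTGFB1, 2.99 with TGFB1 and 1.20 with ATRA, so the ATRA pair fell short of 1.5-fold. The log2 difference over the 4 pairs was -2.04 ± 0.23 (SE from the shared variance, limma adjusted p = 2.58e-15, centred 0.0128). This SE does not measure how far the 4 pairs lay apart. The difference in the DMSO and VehTGFB1 pairs less that in the ATRA and TGFB1 pairs was -2.24 ± 0.37 log2 units (SE, limma interaction, adjusted p = 0.00633, and 0.00211 after centring). This division of the pairs into vehicle and active additive was chosen after the values were seen. With the DMSO pair left out, 1 residual degree of freedom remained and limma called 0 interactions (2963 at an unadjusted p under 0.05), and likewise without the VehTGFB1 pair (0, and 5031). The term for Ccnd1 was then -1.83 and -2.66.

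Top2a (chr11:98992947-99024189) showed this division as well. With IL-34 its level was 18.3, 127, 17.4 and 16.1 with DMSO, ATRA, TGFB1 and VehTGFB1, and with M-CSF it was 347, 115.5, 20.4 and 284.5. M-CSF was far higher with either vehicle, by 19.0-fold with DMSO and 17.6-fold with VehTGFB1. The pairs with ATRA (both high) and with TGFB1 (both low) held nearly equal levels, and the ATRA pair had the other sign. The same interaction was -4.08 ± 0.38 (adjusted p = 3.44e-05, centred 3.18e-06, edgeR 3.46e-23), and -4.02 without the DMSO pair (adjusted p = 0.253) and -4.13 without the VehTGFB1 pair (0.129). Top2a is thus not a gene that differed alike in all 4 pairs.

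**Figure D1:**
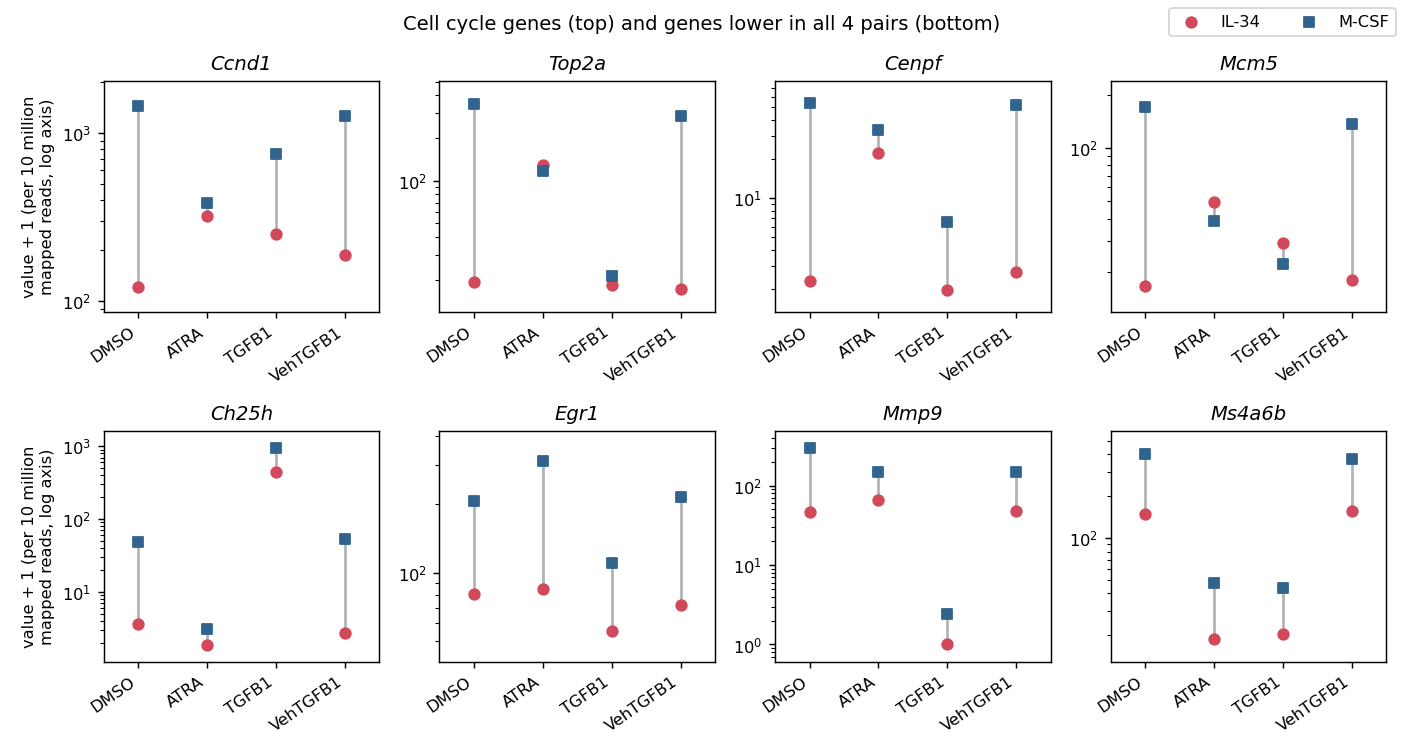
Values plus 1 per 10000000 mapped reads (log axis) of 8 genes in the 8 LPM libraries, by additive; circles are IL-34, squares M-CSF, and a line joins each pair. Ccnd1, Top2a, Cenpf and Mcm5 (top) are separated most with DMSO and VehTGFB1, while Egr1, Mmp9 and Ms4a6b (bottom) are separated in every pair. The Mmp9 pair with TGFB1 rests on very few reads.

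The mitosis list holds 28 genes, and all 28 were lower with IL-34 in the DMSO pair and all 28 in the VehTGFB1 pair. In the ATRA pair 14 of 28 were lower, and in the TGFB1 pair 21 of 28. Among all 15417 genes, 12124, 5835, 6582 and 9596 were lower in the DMSO, ATRA, TGFB1 and VehTGFB1 pairs. The median log2 difference of the list after centring was -2.14 with DMSO, -0.19 with ATRA, -0.42 with TGFB1 and -2.13 with VehTGFB1. Over the ligand as a whole, 17 of 28 were called lower and 0 higher, beside 0.928% of all genes called lower. EdgeR called 12 lower (of 85 among all genes), DESeq2 3 (of 30), and limma after quantile normalization 0 (of 10). For 19 of 28 the difference was more negative in the vehicle pairs than in the ATRA and TGFB1 pairs, beside 5.08% of all genes, and for 8 of 28 after centring, beside 0.675%. With either vehicle pair left out, the term was negative for all 28, beside 64.9% of all genes without the DMSO pair and 80.7% without the VehTGFB1 pair, and limma called 0 (13 and 20 of the 28 at an unadjusted p under 0.05). Interaction terms more positive in the vehicle pairs were called for 0 of the 28, beside 0.0908% of all genes, and for 0 after centring, beside 0.701%.

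Cdk1 was at 7.83 with IL-34 and DMSO and at 101 with M-CSF and DMSO, and at 9.33 and 76.0 with VehTGFB1. With ATRA the same gene stood at 54.3 with IL-34 and at 43.7 with M-CSF. Its interaction was -2.71 ± 0.58 (adjusted p = 0.0192, centred 0.0352). Prc1, whose product bundles microtubules of the spindle midzone, was listed at 0 with IL-34 and DMSO, at 11.0 with VehTGFB1, and at 73.1 and 54.1 in the matching M-CSF libraries. Its interaction was -4.33 ± 0.90 (adjusted p = 0.0178, centred 0.0174), and the term was -2.32 without the DMSO pair and -6.34 without the VehTGFB1 pair. Mki67, the proliferation marker Ki-67, was called lower over the 4 pairs (adjusted p = 0.00325, centred 0.197), with differences of -2.77 in the DMSO pair, 0.14 in the ATRA pair, -0.36 in the TGFB1 pair and -1.23 in the VehTGFB1 pair. Summed over the list, the libraries reached 271, 986, 242 and 375 with IL-34 and 1984, 979, 311 and 1675 with M-CSF, again in the order DMSO, ATRA, TGFB1 and VehTGFB1. The sum was thus lowest in 3 IL-34 libraries and in the M-CSF library with TGFB1, and between these and the highest in both libraries with ATRA.

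DNA replication genes gave the same order with smaller sizes. All 30 listed genes were lower with IL-34 in the DMSO pair and in the VehTGFB1 pair, 11 were lower in the ATRA pair and 16 in the TGFB1 pair. Called lower over the 4 pairs were 5 of 30, Rrm2, Uhrf1, Mcm5 and Cdc6 having the lowest p, beside 0.928% of all genes, and 0 were called higher. By edgeR the count was 3, and by DESeq2 and after quantile normalization it was 0. Mcm5 stood at 15.7, 48.3, 28.0 and 17.0 with IL-34 and at 169, 38.0, 21.1 and 134.8 with M-CSF. It was higher with M-CSF in the vehicle pairs and slightly higher with IL-34 in the others, with an interaction of -3.50 ± 0.44 (adjusted p = 0.00114, centred 0.000287). Rrm2, a subunit of ribonucleotide reductase, was at 0 and 5.94 with IL-34 and the vehicles against 68.2 and 61.1 with M-CSF. The interaction was called more negative for 13 of the 30 genes, beside 5.08% of all genes, and for 5 after centring, beside 0.675%. It was negative for all 30 with either vehicle pair left out, and limma called 0 (12 without the DMSO pair and 16 without the VehTGFB1 pair at an unadjusted p under 0.05).

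**Figure D2:**
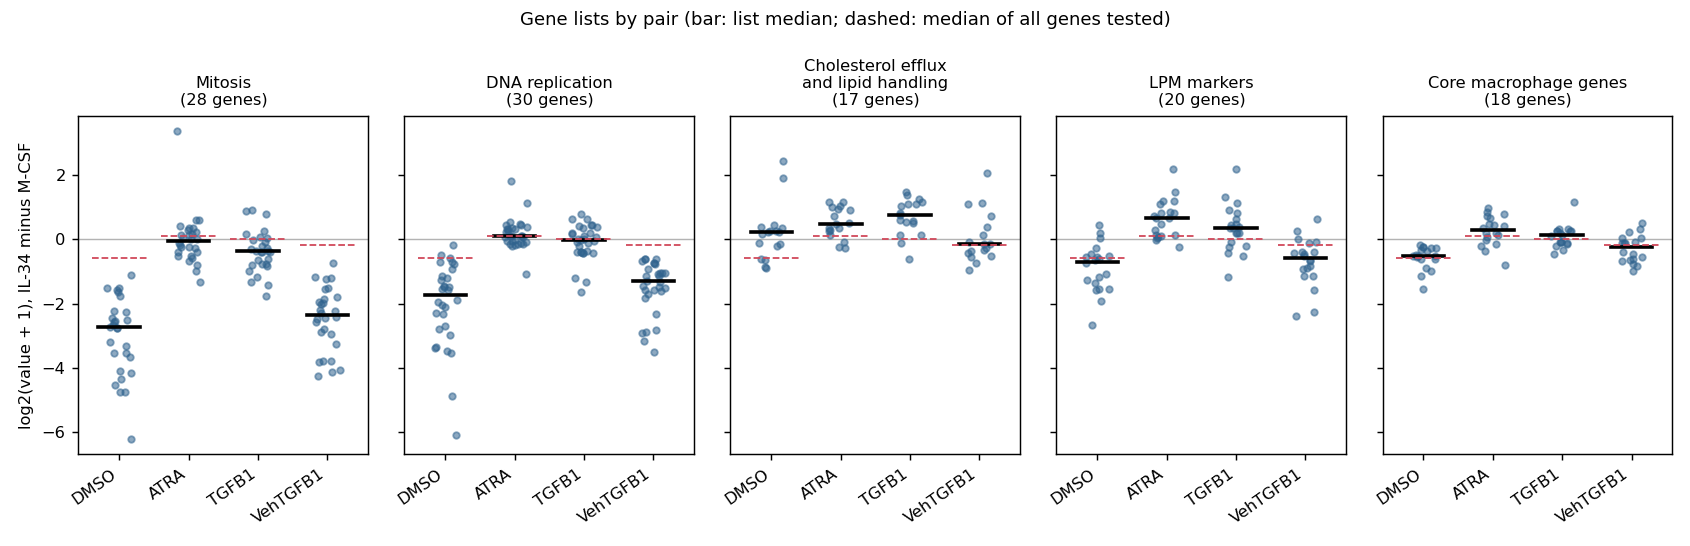
Difference of log2(value + 1), IL-34 minus M-CSF, of each tested member (points) of 5 gene lists in the 4 pairs; the bar is the list median and the dashed line the median of all genes tested. The mitosis and DNA replication points lie far under the dashed line with DMSO and VehTGFB1 and around it with ATRA and TGFB1.

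Upstream of these genes, 2 of 12 listed G1 cyclins and kinases were called lower with IL-34 (0.928% of all genes), Ccnd1 and Ccnd2, and 0 higher. Ccnd2, cyclin D2, stood at 35.2, 227, 3.86 and 68.7 with IL-34 and at 134, 193, 17.6 and 100.3 with M-CSF, with a difference of -1.03 ± 0.28 (limma adjusted p = 0.0286, and 0.281 after centring). Among 11 CDK inhibitors and E2F repressors, the inhibitor Cdkn2b and the repressor E2f8 were called lower (0.928% of all genes). Cdkn2b stood at 64.0 and 76.4 with IL-34 and the vehicles against 260.0 and 232 with M-CSF, so this inhibitor of the cyclin D kinases was higher with M-CSF in the same pairs as Ccnd1. Neither Cdkn2b (adjusted p = 0.109) nor E2f8 (0.434) was called after centring. With ATRA, Cdkn2b stood at 58.5 and 59.2.

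**Figure D3:**
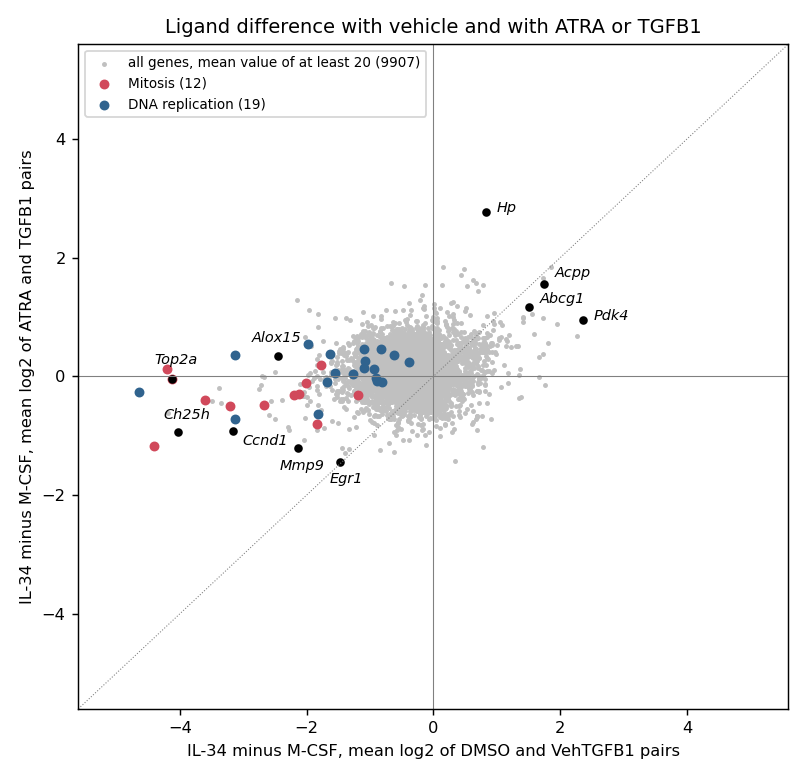
Each point is a gene with a mean value of at least 20 in the 8 libraries (9907 genes); the x axis is the mean log2 difference, IL-34 minus M-CSF, in the DMSO and VehTGFB1 pairs, the y axis that in the ATRA and TGFB1 pairs, and the dotted line marks equality. Mitosis and DNA replication genes lie to the left at y values near 0, Egr1, Abcg1 and Acpp lie near the dotted line, and Hp lies above it.

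The receptor gene was not called. Csf1r stood between 4820 and 9257 in the 8 libraries, with a difference of -0.09 ± 0.31 (limma adjusted p = 0.954). Csf1, the gene of M-CSF, stood between 16.5 and 103 with a difference of 0.53 ± 0.32 (adjusted p = 0.750), and Il34 had a mean of 1.66, near the value of 1 to 2 reads. Ptprz1 was at 0 in all 8 libraries. The receptors Csf2ra, Csf2rb and Csf3r were not called, with adjusted p of 0.757, 0.861 and 0.977. Sdc1 was the exception in this list. Its level was 79.6, 210.3, 37.7 and 50.1 with IL-34 and 47.1, 95.1, 9.14 and 28.2 with M-CSF, higher with IL-34 in each pair, by 1.15 ± 0.29 (adjusted p = 0.0111, centred 0.0155).

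Of 26 genes of CSF1R signalling and its feedback, 2 were called lower with IL-34 (0.928% of all genes) and 0 higher. Egr1, an immediate early transcription factor, stood at 79.6, 83.9, 54.1 and 71.3 with IL-34 and at 206, 309, 110 and 216 with M-CSF. Every M-CSF library was above every IL-34 library. Egr1 differed by -1.46 ± 0.25 (adjusted p = 4.41e-06, centred 0.0110) and was called under all 4 other scalings and tools. Its interaction was -0.04 ± 0.35, with an adjusted p of 0.957. Fos was lower with IL-34 (log2 difference -0.97 ± 0.24, adjusted p = 0.0105, centred 0.0655), with pair differences of -1.34, -0.12, -0.90 and -1.49.

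By the rule of 1.5-fold in each of the 4 pairs at a mean of at least 10, 16 genes were higher with IL-34 (0.146% of 10932) and 24 lower (0.22%). Without the size limit, 291 genes (2.66%) were higher and 1203 (11.0%) lower in all 4 pairs. The 40 genes were chosen by these differences, which are given as description. After centring, 26 genes were higher and 19 lower, which kept all 16 of the higher and 15 of the 24 lower genes. Just inside the limit lay Col4a5, Cenpf and Zfp438, whose least pair differences were 0.586, 0.590 and 0.591, and just outside it Snord61, Zfp37 and Pbk with 0.567, 0.565 and 0.562. Limma called 13 of the 16 and 17 of the 24, but it tested the same 4 differences by which these genes were chosen. These calls are therefore no separate support.

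**Figure D4:**
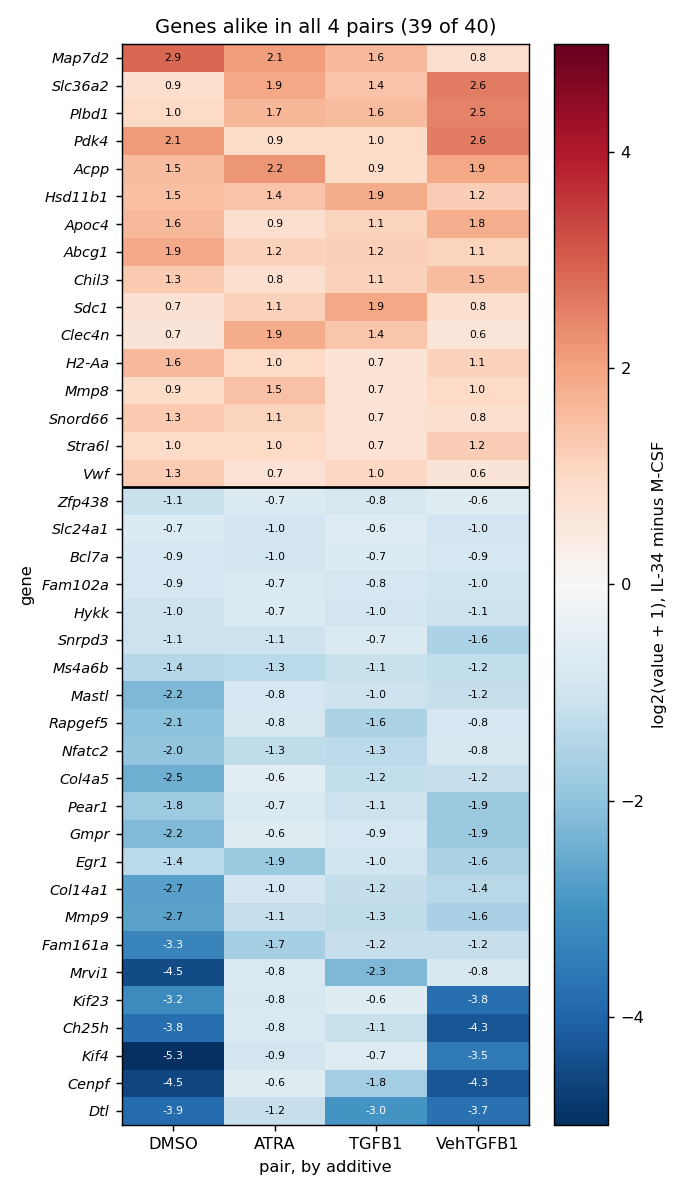
Difference of log2(value + 1), IL-34 minus M-CSF, in each pair (columns) for 39 of the 40 genes (rows) that differed by 1.5-fold or more in 1 direction in all 4 pairs, ordered by the fitted difference; red is higher and blue lower with IL-34. Cenpf, Kif4, Kif23, Dtl and Ch25h are darkest in the DMSO and VehTGFB1 columns, while Egr1 and Ms4a6b are alike across columns.

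Among the higher genes were the lipid exporter Abcg1 and the apolipoprotein gene Apoc4. Abcg1 (chr17:31057694-31117981), which exports cholesterol to lipoproteins, stood at 197, 747, 128 and 154 with IL-34 and at 52.0, 335, 56.2 and 70.5 with M-CSF. Both ligands reached their highest level with ATRA, and IL-34 was higher by 1.34 ± 0.24 (adjusted p = 2.12e-05, centred 0.0105). Apoc4 (chr7:19678084-19681460), a small apolipoprotein gene, stood at 19.6, 170, 199 and 50.1 with IL-34 and at 5.69, 93.7, 91.4 and 13.3 with M-CSF (1.36 ± 0.30, adjusted p = 0.00120, centred 0.0209). Its neighbour Apoc1 was also called higher (1.47 ± 0.26), but its ATRA pair differed by 0.27 only, and the adjusted p after centring was 0.0659. Of 17 genes of cholesterol efflux and lipid handling, Abcg1 and Apoc1 were called higher (0.266% of all genes) and 0 lower. EdgeR called 4 higher (of 126 among all genes), DESeq2 5 (of 72), and limma after quantile normalization 1 (of 26). The list median was 0.29 beside -0.16 over all genes. By pair it was 0.25 with DMSO, 0.48 with ATRA, 0.75 with TGFB1 and -0.15 with VehTGFB1. Over all genes the medians were -0.56, 0.09, 0.03 and -0.18 in the same order, so the VehTGFB1 pair lay close to all genes. Of 22 genes of sterol and fatty acid synthesis, 0 were called in either direction by limma, while edgeR called 2 higher and DESeq2 1.

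Pdk4, the kinase that restrains pyruvate dehydrogenase and so glucose oxidation, stood at 86.1, 68.7, 551 and 126 with IL-34 and at 18.7, 35.9, 281 and 20.4 with M-CSF. TGFB1 gave the highest level with either ligand. The difference was 1.65 ± 0.27 (adjusted p = 7.28e-07, centred 0.0208), larger in the vehicle pairs by 1.42 ± 0.36 (adjusted p = 0.0318, centred 0.00175). Acpp, the prostatic acid phosphatase gene, stood at 292, 689, 347 and 314 with IL-34 and at 101, 149, 186 and 80.7 with M-CSF. Its 4 IL-34 libraries were all above its 4 M-CSF libraries (1.64 ± 0.23, adjusted p = 4.74e-09, centred 0.00216). Map7d2, a microtubule-associated protein gene, differed by 1.85 ± 0.33 (adjusted p = 1.21e-05, centred 0.0204), and the amino acid transporter Slc36a2 by 1.70 ± 0.41 (adjusted p = 0.00493, centred 0.0554), though Slc36a2 stood under 6 in both DMSO libraries and under 6 with VehTGFB1.

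Also higher in all 4 pairs were Clec4n, Chil3, Mmp8 and Snord66. Clec4n, the gene of the fungal receptor Dectin-2, stood at 1047, 382, 82.1 and 909.7 with IL-34 and at 664, 104, 30.9 and 599.6 with M-CSF. It was lower with TGFB1 than with any other additive in both ligands, and IL-34 was higher in each pair, by 0.66, 1.86, 1.38 and 0.60 log2 units (limma adjusted p = 0.000301, centred 0.00216). Chil3, the chitinase-like protein Ym1 that marks alternative activation in mice, stood at 75.7, 669, 231 and 72.1 with IL-34 and at 30.1, 379, 105 and 24.3 with M-CSF (1.20 ± 0.25, adjusted p = 0.000567, centred 0.0110). Mmp8, neutrophil collagenase, was higher by 1.01 ± 0.26 (adjusted p = 0.0118, centred 0.0128). Chil3 has close paralogs that can share reads. Snord66 was higher by 0.99 ± 0.24, but this small nucleolar RNA lies inside Eif4g1 on the same strand, so its reads cannot be told from those of its host. All small nucleolar RNA genes summed to 329212, 153794, 176031 and 134992 with IL-34 and to 151379, 125057, 127591 and 133437 with M-CSF, so their sum was also higher with IL-34 in each pair, and its part in Snord66 was not tested.

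Hp (chr8:109575128-109579172), the haemoglobin-binding acute phase protein haptoglobin, was the third gene given as a marker of this contrast. It stood at 243, 1439.8, 463 and 205 with IL-34 and at 98.3, 87.4, 163 and 161 with M-CSF. Its 4 IL-34 libraries were above its 4 M-CSF libraries, and the library of IL-34 with ATRA was by far the highest. IL-34 was higher by 2.47-fold with DMSO, 16.5-fold with ATRA, 2.84-fold with TGFB1 and 1.28-fold with VehTGFB1, so the VehTGFB1 pair fell short of 1.5-fold. Over the pairs Hp was higher by 1.79 ± 0.23 (SE from the shared variance, adjusted p = 6.82e-11, centred 0.0270), an SE that leaves out the spread between the pairs. The vehicle pairs differed less than the ATRA and TGFB1 pairs (interaction -1.94 ± 0.52, adjusted p = 0.0389, centred 0.125). Of 12 tested genes of the acute phase and neutrophil granules, Hp, Chil3 and Mmp8 were called higher (0.266% of all genes) and Mmp9 lower (0.928%).

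**Figure D5:**
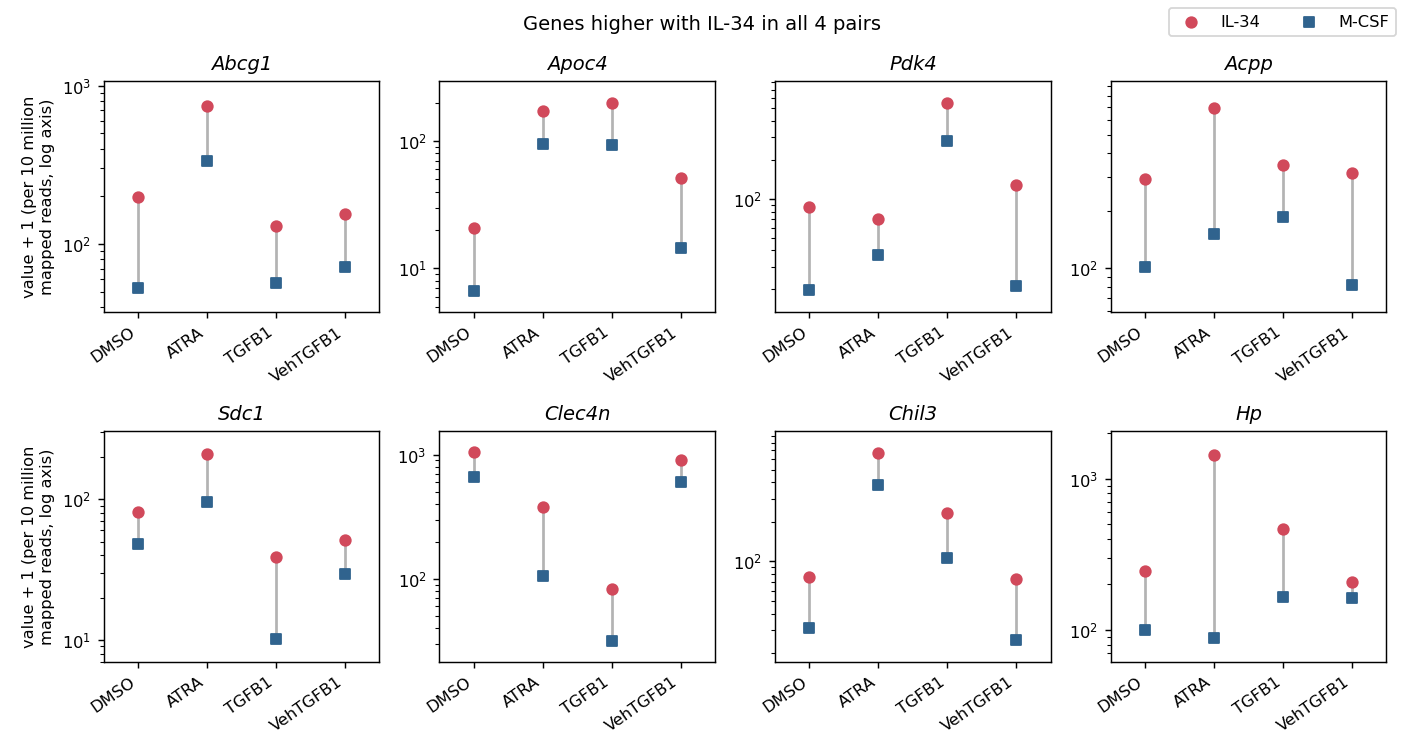
Values plus 1 per 10000000 mapped reads (log axis) of 8 genes in the 8 LPM libraries, by additive; circles are IL-34, squares M-CSF, and a line joins each pair. IL-34 is above M-CSF in each pair of each gene, and the gap of Hp runs from 0.35 log2 units with VehTGFB1 to 4.03 with ATRA.

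Mmp9 and Col14a1, whose products cut and build matrix, were among the lower genes. Mmp9, gelatinase B, stood at 45.7, 65.3, 0 and 47.5 with IL-34 and at 294, 146, 1.40 and 148 with M-CSF. With TGFB1 it was near 0 in both ligands, at 0 and 2 reads, so that pair gives no fold. The fitted difference was -1.67 ± 0.32 (adjusted p = 6.45e-05, centred 0.0128). Col14a1, collagen XIV, stood at 73.1, 511, 703 and 128 with IL-34 and at 480, 995, 1589 and 333 with M-CSF (-1.55 ± 0.23, adjusted p = 1.30e-08, centred 0.00216). Of 15 genes of matrix and its proteinases, Mmp8 was called higher (0.266% of all genes) and Mmp9 lower (0.928%). EdgeR called 3 higher and 1 lower (of 126 and 85 among all genes), and DESeq2 3 and 2 (of 72 and 30). The list median was 0.19, beside -0.16 over all genes, so the list as a whole was not lower with IL-34. Col14a1 is not in that list.

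Ch25h, the cholesterol 25-hydroxylase, ranged most widely over the additives. It stood at 2.61, 0.848, 441 and 1.70 with IL-34 and at 47.9, 2.11, 957 and 51.7 with M-CSF. TGFB1 gave the highest level with either ligand, and the 3 low IL-34 libraries hold 1 or 2 reads each. The fitted difference was -2.48 ± 0.35 (adjusted p = 4.74e-09, centred 0.0450), and the vehicle pairs were more negative (interaction -3.09 ± 0.54, adjusted p = 0.00818, centred 0.0144). Ms4a6b, a tetraspan membrane protein gene with close paralogs, stood at 149, 17.8, 19.3 and 156 with IL-34 and at 403, 46.5, 42.9 and 371 with M-CSF. It was lower with ATRA or TGFB1 than with a vehicle in both ligands, and the pair differences lay between -1.43 and -1.11 (-1.28 ± 0.26, adjusted p = 0.000388, centred 0.0128). Rapgef5, a guanine nucleotide exchange factor gene for Ras-like GTPases, was lower (log2 difference -1.32 ± 0.28, adjusted p = 0.000605, centred 0.0270), and Nfatc2, a calcium-regulated transcription factor, likewise (-1.34 ± 0.32, adjusted p = 0.00476, centred 0.0620).

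The remaining lower genes again hold members of the cell cycle. Cenpf stood at 1.30, 21.2, 0.966 and 1.70 with IL-34 and at 52.8, 32.4, 5.62 and 50.9 with M-CSF. Its 3 low IL-34 libraries hold 1 or 2 reads each, so its fitted size, like those of Ch25h, Prc1 and Rrm2, depends on the 1 added to each value. Its fitted difference was -2.79 ± 0.40 (adjusted p = 1.13e-08, centred 0.0453) and its interaction -3.24 ± 0.68 (adjusted p = 0.0192, centred 0.0462). Dtl, Kif4, Kif23 and Mastl, whose products act in replication licensing, spindle function and mitotic entry, were also lower in all 4 pairs, with fitted differences from -2.94 for Dtl to -1.32 for Mastl. After centring, Dtl was called (adjusted p = 0.0128), while Kif4 (0.118), Kif23 (0.118) and Mastl (0.142) were not.

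Of 18 core macrophage genes 0 were called by limma in either direction, and 1 was called lower by edgeR and 1 by DESeq2. Of 20 tested LPM markers, Alox15 alone was called, lower with IL-34 (0.928% of all genes). Alox15, 12/15-lipoxygenase, stood at 305, 3594, 293 and 372.5 with IL-34 and at 1930, 1674, 391 and 1789 with M-CSF. It was lower with IL-34 with either vehicle and higher with ATRA, with an interaction of -2.80 ± 0.37 (adjusted p = 0.00114, centred 0.000287). Its difference over the 4 pairs had an adjusted p of 0.00119, and 0.434 after centring. The LPM marker list as a whole also differed between the pairs. Of its 20 tested genes, 17 were lower with IL-34 in the DMSO pair and 17 in the VehTGFB1 pair, against 2 in the ATRA pair and 6 in the TGFB1 pair. Among all 15417 genes, 12124, 9596, 5835 and 6582 were lower in these pairs in the same order. Most genes were thus lower in the DMSO and VehTGFB1 pairs as well. The interaction was called more negative for 8 of the 20, beside 5.08% of all genes, and for 5 after centring, beside 0.675%, so the difference between vehicle and active pairs was not confined to cell cycle genes. These 5 were Alox15, Serpinb2, Fcna, Timd4 and Icam2. Serpinb2, a serine protease inhibitor gene, had pair differences of -1.93 with DMSO, 2.21 with ATRA, 0.35 with TGFB1 and -2.37 with VehTGFB1 (interaction -3.43 ± 0.44, adjusted p = 0.00114, centred 0.000287). Timd4, a receptor for phosphatidylserine on dying cells, had pair differences of -1.26, 0.81, 0.65 and -0.65 in the same order (interaction -1.68 ± 0.31, adjusted p = 0.0101, centred 0.0144). After centring, the list medians were -0.08, 0.54, 0.30 and -0.35. The term was negative for 18 of 20 without the DMSO pair (90% beside 64.9% of all genes) and for 19 of 20 without the VehTGFB1 pair (95% beside 80.7%), and limma then called 0 (5 and 5 at an unadjusted p under 0.05). Gata6 itself stood at 50.9, 181, 128 and 80.6 with IL-34 and at 85.3, 184, 183 and 87.0 with M-CSF, higher with ATRA or TGFB1 than with a vehicle in both ligands. Gas6, the ligand of phagocytic TAM receptors, was the 1 gene of 19 of complement and phagocytosis that was called, lower with IL-34 (0.928% of all genes). Gas6 stood at 364, 296, 148 and 567 with IL-34 and at 1197, 674, 111 and 1537 with M-CSF (-0.98 ± 0.23, adjusted p = 0.00289, centred 0.152).

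Single genes were called in several other lists, beside 0.266% of all genes called higher and 0.928% called lower. Itgax (CD11c) was higher with IL-34 in each pair (0.83 ± 0.23, adjusted p = 0.0297, centred 0.0270), the 1 call among 11 monocyte and dendritic markers. Atp6v0d2, a subunit of the vacuolar proton pump, was the 1 call among 20 lysosomal genes (0.83 ± 0.23, adjusted p = 0.0249, centred 0.0208). Il1b was the 1 call among 20 inflammatory genes, and it rests on the DMSO and ATRA pairs, with differences of 2.62 and 4.54 against 0.21 and 0.02 in the TGFB1 and VehTGFB1 pairs. It was called by edgeR and DESeq2 but not after centring (adjusted p = 0.222), quantile normalization or TMM scaling. Adm, at 0 in 3 IL-34 libraries and at most 9.86 elsewhere, was the 1 call among 16 genes of glycolysis and hypoxia, and was not called after centring (adjusted p = 0.195), quantile normalization (0.173) or TMM scaling (0.181) or by edgeR (0.577), while DESeq2 gave it no adjusted p. By limma, 0 genes were called among 20 interferon-stimulated, 10 MHC class II, 18 apoptosis and 10 retinoic acid response genes.

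The planned test of whether the ligand difference varied between the pairs with DMSO or ATRA and the pairs with TGFB1 or its vehicle called 0 genes by limma, with 237 at an unadjusted p under 0.05, and 4 by edgeR. The division into vehicle and active additive called 783 genes more negative (5.08%) and 14 more positive (0.0908%) on the authors' scale, and 104 (0.675%) and 108 (0.701%) after centring. By edgeR the counts were 330 and 340. The excess of negative terms on the authors' scale thus moves with the lower medians of the DMSO and VehTGFB1 pairs, and the cell cycle and LPM marker terms are given above on both scales.

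Microglia, the macrophages of the brain, were cultured for 7 days with IL-34 or M-CSF at 4 ng/ml without an additive, in 1 library each, so this pair has no replicate check. The M-CSF library had very high interferon-stimulated genes, with Rsad2 at 62705 against 579 with IL-34, and Il1b at 18935 against 28.0. Top2a stood at 26.9 with IL-34 and 274 with M-CSF, Cdk1 at 7.85 and 61.7, and Ccnd1 at 987 and 1769, so these 3 genes had the sign of the LPM vehicle pairs. Ccnd1 had that sign in every LPM pair, not in the vehicle pairs alone. Abcg1 stood at 289 and 371 and Egr1 at 62.8 and 68.0, both within 1.5-fold. Of the 18 genes lower in all LPM pairs that had a mean of at least 10 in microglia, 7 were lower by 1.5-fold and 4 higher. Of 9 such genes higher in LPM, 2 were higher and 4 lower. Over all 11344 genes with that mean, 2103 were higher with IL-34 by 1.5-fold and 3736 lower.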

How the data were processed

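RNA values came from the authors' deposited table of cultures depleted of ribosomal RNA, with 1 row per transcript. Per the file headers, each value is a signal of reads in exons scaled to 10000000 mapped reads per library. The headers also give a rounded scaling factor. The mapped reads printed here correspond to 10000000 divided by the worth of 1 read. Per the submitters' processing notes, the tools included STAR, Bowtie and HOMER and the build was mm10, with no versions; the strand setting is not given in the sources used here, so overlapping genes on opposite strands cannot be told apart. The longest row per symbol was kept (24063 symbols from 33072 rows), and 2 columns of per-sample values were not used.

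Divided by the worth of 1 read, 100% of the low values lay within 0.1 of a whole number, and edgeR on these reads called 211 genes. Since they are not raw counts, limma 3.58.1 with a mean-variance trend was fitted in R 4.3.3 to log2(value + 1), with additive as a block, over 15417 genes with a value of at least 1 in 1 library. Folds on this scale understate changes of low genes. Benjamini-Hochberg adjustment ran over all genes tested. Alternatives used edgeR 4.0.16 and DESeq2 1.42.0 (an adjusted p given as NA stayed NA), other scalings, filters, pseudocounts and left-out libraries. The fits were also run on simulated reads, with 1 dispersion for all genes and no shift between library medians. That run therefore does not test the fits under the shift seen in these libraries. Libraries pair by the additive that the labels give, and the 4 pairs stand in for replicates. The spread between pairs includes how the ligand difference varies with additive and may be technical. In the main fit the variance was shared in full across genes, so a gene's own spread does not enter its SE or p.

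Named genes were those with a mean of at least 20, called and alike in all 4 pairs (up to 15 each way), with Ccnd1, Hp, Top2a, the CSF1R ligands and receptors, and up to 4 called members per list; others named in counts were chosen after their values were seen. Members, lists and tests were chosen with earlier results of these data known. Results for some genes are not reported here.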

Additional observations from a re-analysis of the deposited data

Results flagged for a closer look

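In 17 of the 48 genes named by the rules and lists, the ligand difference in the DMSO and VehTGFB1 pairs departed from that in the ATRA and TGFB1 pairs (limma interaction, adjusted p under 0.05 on the authors' scale, a division chosen after the values were seen). On the log2 scale the term was -4.38 for Rrm2, -4.33 for Prc1, -4.08 for Top2a, -3.78 for Cdc6, -3.66 for E2f8, -3.50 for Mcm5, -3.24 for Cenpf, -3.09 for Ch25h, -2.80 for Alox15 and -2.71 for Cdk1. It was -2.41 for Uhrf1, -2.24 for Ccnd1, -1.94 for Hp, -1.49 for Cdkn2b, -0.99 for Clec4n, 1.42 for Pdk4 and 1.58 for Apoc1. After centring on library medians, Hp (adjusted p = 0.125), Clec4n (0.326), E2f8 (0.0737), Uhrf1 (0.141) and Cdkn2b (0.0765) were no longer called, and the other 12 were. Without the DMSO pair the terms of Rrm2 and Prc1 were -2.91 and -2.32, and 0 genes were called by limma with either vehicle pair left out (2963 and 5031 at an unadjusted p under 0.05).

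Within the 4 libraries of 1 ligand, which differ in additive, 1 library stood far from the other 3 in 10 of 58 sets of 4 values. The cut-off used flags about 1 in 20 sets of normally distributed replicates. These libraries are not replicates, since each holds another additive, and the values were not logged, so that rate does not apply to these sets. The gap to the nearest library, as a share of the whole range, was 0.889 for Abcg1 with IL-34 and 0.934 with M-CSF, in both cases the ATRA library. With IL-34 the ATRA library also stood above the rest for Acpp (0.863), Slc36a2 (0.889), Cenpf (0.964) and Top2a (0.981). The TGFB1 library stood above the rest for Ch25h (0.996 with IL-34 and 0.948 with M-CSF) and Pdk4 (0.880 and 0.934).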

How the results depend on the processing

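The counts of called genes moved most. Against 41 higher and 143 lower, they were 0 and 3 with no filter on low values, 26 and 10 after quantile normalization, 23 and 10 with TMM scaling, 28 and 13 after median centring, 126 and 85 by edgeR and 72 and 30 by DESeq2. They were 0 and 0 without the variance trend (1151 genes at an unadjusted p under 0.05), with each gene's own variance, with no replicate block (597), with the DMSO and ATRA, the TGFB1 and VehTGFB1, the DMSO and VehTGFB1 or the ATRA and TGFB1 pairs alone, and from 0 to 0 with each of the 8 libraries left out. Of the 1005 fitted differences of 42 named genes called in the main comparison, 243 kept sign and call under these alternatives, 758 kept the sign and lost the call, and 4 turned positive, all in the ATRA and TGFB1 pairs alone: Alox15 (0.34), Prc1 (0.13), Mcm5 (0.37) and E2f8 (0.13). The 6 named genes not called stayed so in all 143 values, of which 18 changed sign.

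Genes alike in all 4 pairs, 16 higher and 24 lower, numbered 3 and 5 at 1.0 per pair, 291 and 1203 at any size, 9 and 7 at a mean of at least 50, 13 and 15 with a pseudocount of 5, 26 and 20 after quantile normalization, and 26 and 19 after median centring. With a pair left out they numbered 29 to 34 higher and 28 to 128 lower, the latter without the ATRA pair. The planned interaction called 4 genes by edgeR against 0. The vehicle interaction, 783 more negative and 14 more positive, gave 330 and 340 by edgeR and 104 and 108 after centring, and 0 to 0 of either with the DMSO or the VehTGFB1 pair left out. Causes were not tested. Median centring, the pairs alone by vehicle and active additive, and the vehicle interaction with its alternatives were chosen after seeing the data. Depth limits genes such as Mmp9 with TGFB1, and Cenpf with IL-34 and DMSO, TGFB1 or VehTGFB1, at 0 to 2 reads.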
